A study of Mus musculus with 19 samples.

Results

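The genes described here are the named steps of cholesterol synthesis together with genes of its regulation, export, uptake and handling inside the cell, 32 genes in all, measured in mouse hippocampus. A member was found by its symbol in the array annotation, and its value is that of the probe set that carries this symbol alone and has the highest mean over all 19 arrays. Of the 32, 29 had such a probe set, among 19938 genes measured by the same rule. They are 17 synthesis genes (Hmgcs1, Mvk, Pmvk, Mvd, Idi1, Fdps, Fdft1, Sqle, Lss, Cyp51, Tm7sf2, Msmo1, Nsdhl, Hsd17b7, Ebp, Sc5d and Dhcr7), 4 regulators (Srebf2, Scap, Insig1 and Nr1h3), 4 export genes (Abca1, Abcg1, Lcat and Cyp46a1) and 4 genes of uptake and handling (Mylip, Npc1, Npc2 and Stard4). Acat2, Soat1 and Nr1h2 had no probe set of their symbol alone and were not analysed here.

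The arrays came from a study of 2 genotypes and 2 diets. APP-PS1 mice, labelled APPSwe-PS1deltaE9, carry transgenes for mutant human amyloid precursor protein and presenilin under the control of the prion protein gene promoter, and deposit amyloid in the brain. Their controls were wild-type littermates, and all mice were of strain C57BL/6J and 6 months old. Chow with ibuprofen at 375 ppm, a cyclooxygenase inhibitor, or the identical chow without it was eaten from 3 to 6 months of age. Control chow is represented by 4 wild-type and 5 APP-PS1 arrays, and ibuprofen chow by 5 arrays of each genotype.

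Cholesterol hardly crosses the blood-brain barrier, so the brain makes its own, and myelin holds most of it. Synthesis runs from acetyl units through mevalonate, isoprenoids and squalene to the sterol ring, which is then trimmed to cholesterol. When sterols are scarce in the membrane of the endoplasmic reticulum, Scap escorts the transcription factor SREBP2, the product of Srebf2, to the Golgi, where it is cut and released to switch on the genes of synthesis and uptake; Insig1 holds the pair back when sterols are plentiful. When sterols are abundant, oxysterols activate liver X receptors such as the product of Nr1h3, which switch on export through Abca1 and Abcg1 and, through Mylip, the breakdown of lipoprotein receptors.

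The labels name no sex, litter or batch, and say only by their titles that the arrays of a group are replicates, so p-values measure the spread between these samples. Log2 medians per array ranged from 8.06 to 8.14. In 3 arrays the median correlation with the others was under 0.99 (0.9898 for APP-PS1 control chow replicate 1, 0.9874 for wild-type ibuprofen chow replicate 1 and 0.9745 for its replicate 5), and they stand apart in what follows. Prnp, whose promoter drives the transgenes, differed by 0.67 ± 0.03 (SE) between genotypes on each diet (limma, adjusted p = 8.19e-11 on control and 2.54e-11 on ibuprofen chow). Markers of hippocampal neurons were present in every array, with array means of 10.50 to 11.05. The 9 choroid plexus markers had array means from 7.78 to 10.52, which is a wide spread within every group. In the median of these 9, APP-PS1 mice lay higher by 0.52 on control chow, 0.66 on ibuprofen chow and 0.61 averaged over diets. With their mean as a covariate no member had an adjusted p under 0.05 in any comparison (limma). No member had one in the fit without it either, so this count cannot show the part of these markers. Their part in the results was not tested further. In whole tissue, fewer cells of a type and less RNA per cell cannot be told apart.

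On control chow the synthesis genes lay higher in APP-PS1 than in wild-type hippocampus in every one of the 17 steps measured. Their median difference was 0.22 on the log2 scale, in a range of 0.10 to 0.39, beside a median of 0.02 over all genes, of which 11550 of 19938 lay above 0. No member passed at an adjusted p under 0.05 (limma with Benjamini-Hochberg adjustment over all genes; 0.01% of all genes passed). At an unadjusted p under 0.05, 8 of the 17 synthesis genes were higher and 0 lower, where 4.8% of all genes were higher and 1.07% lower. These are small differences, of 1.07-fold for Pmvk to 1.31-fold for Hsd17b7, and none is a call.

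**Figure D1:**
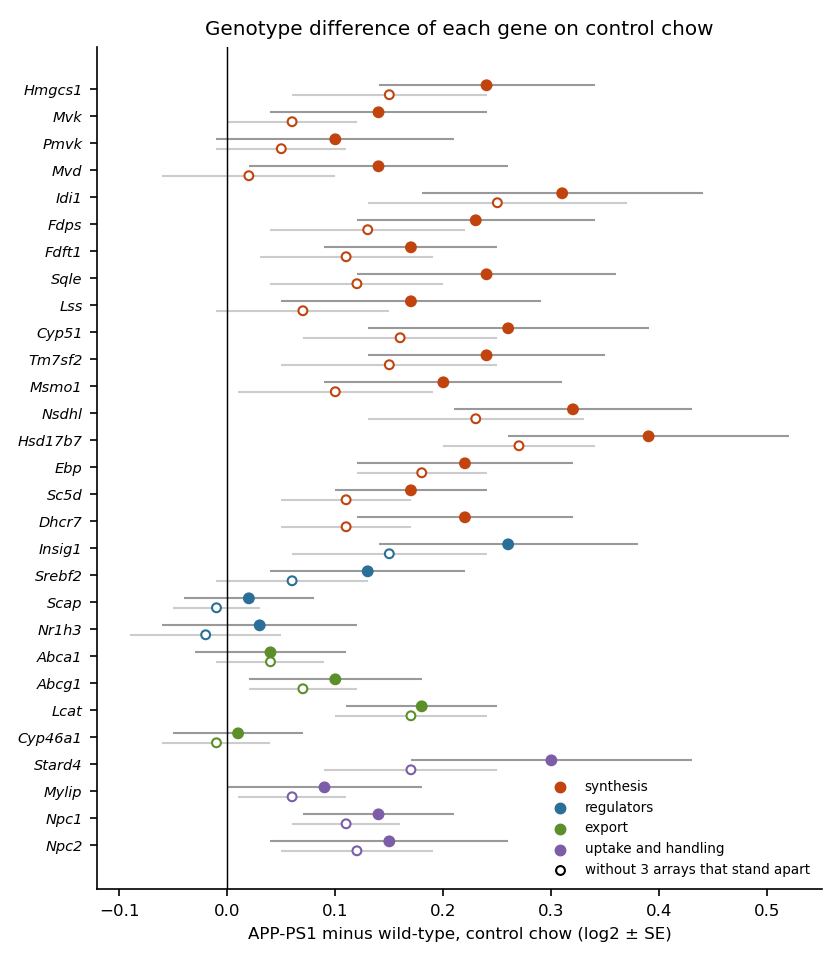
Difference between APP-PS1 and wild-type hippocampus on control chow for each of 29 genes (log2, bars are limma standard errors), in pathway order, with all 19 arrays (filled) and without the 3 arrays that stand apart (open). All 17 synthesis genes lie to the right of 0 in both, with a median of 0.22 in the first and 0.12 in the second.

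The first enzymes of the pathway build mevalonate and turn it into an activated isoprene unit. Hmgcs1, the synthase that makes the precursor of mevalonate (probe set 10412466), had values of 11.53, 11.53, 11.46 and 11.37 in the 4 wild-type arrays on control chow and of 12.06, 11.66, 11.66, 11.56 and 11.63 in the 5 APP-PS1 arrays. All 5 APP-PS1 arrays lay above all 4 wild-type arrays, with replicate 1 well above the rest. The group means were 11.47 ± 0.08 (SD, n = 4) and 11.71 ± 0.20 (SD, n = 5), a difference of 0.24 ± 0.10 (SE) with adjusted p = 0.806 (limma). Mvk and Pmvk, the kinases that phosphorylate mevalonate, and Mvd, the decarboxylase after them, gave 0.14, 0.10 and 0.14. Pmvk had the largest p of the synthesis genes (probe set 10493548). Its wild-type values were 8.91, 8.82, 8.82 and 8.88 and its APP-PS1 values 9.17, 8.90, 8.86, 8.92 and 8.92, so that the groups overlapped and 5 of 5 APP-PS1 arrays lay above the wild-type mean. Its difference was 0.10 ± 0.11 (SE), adjusted p = 0.961 (limma).

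Idi1, the isomerase of the isoprene unit, differed by 0.31 ± 0.13 (SE, adjusted p = 0.808, limma), and its other probe set gave 0.31 as well. Fdps, which joins isoprene units to farnesyl diphosphate, gave 0.23. Of the 3 steps that make squalene and close it into a ring, Fdft1 gave 0.17, Sqle 0.24 and Lss 0.17. For Fdps all 5 APP-PS1 arrays lay above all wild-type arrays, whereas the groups of Idi1, Fdft1, Sqle and Lss overlapped.

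The late steps trim the first sterol, lanosterol, to cholesterol, and 7 of these 8 enzymes had no overlap between the groups, by margins that vanish at 2 decimals for Tm7sf2 (9.40), Ebp (9.63) and Dhcr7 (10.04). Hsd17b7, the ketosterol reductase that completes removal of the methyl groups at carbon 4 (probe set 10359917), had the smallest p of all members. Its values were 10.01, 10.05, 9.84 and 9.89 in wild-type mice and 10.84, 10.27, 10.24, 10.15 and 10.19 in APP-PS1 mice on control chow. Every APP-PS1 array lay above every wild-type array, and replicate 1 stood far above the other 4. The difference was 0.39 ± 0.13 (SE), unadjusted p = 0.00517 and adjusted p = 0.767 (limma). Nsdhl, the dehydrogenase of the same reaction sequence (probe set 10600082), had values of 10.74, 10.66, 10.35 and 10.68 in wild-type and of 11.28, 10.89, 10.82, 10.78 and 10.87 in APP-PS1 mice. Here too the groups did not overlap, and the difference was 0.32 ± 0.11 (SE, adjusted p = 0.794, limma). Msmo1, the oxidase that opens this sequence, gave 0.20. Differences of 0.26 for Cyp51, which removes the methyl group at carbon 14, and 0.24 for Tm7sf2, the reductase after it, were of like size. Ebp, the isomerase that moves the ring's double bond, gave 0.22, Sc5d, the desaturase after it, 0.17, and Dhcr7, a reductase at the end of the pathway, 0.22. Cyp51 was the late enzyme whose groups overlapped.

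In all, 9 of 17 synthesis genes had every APP-PS1 array above every wild-type array on control chow (Hmgcs1, Fdps, Tm7sf2, Msmo1, Nsdhl, Hsd17b7, Ebp, Sc5d and Dhcr7), where 2.94% of all genes did. Leaving out APP-PS1 control chow replicate 1 could not undo this, because it was the highest of its group in all 17 genes. The same 9 were then separate, and 3.46% of all genes were. After quantile normalization 6 of 17 were separate (1.78% of all genes) and after centring each array on its median 7 of 17 (1.63% of all genes). Both sets include Idi1, whose groups overlapped in the values as deposited. Tm7sf2, Sc5d and Dhcr7 were separate under neither scaling, and Msmo1 under centring only. These last 3 settings were chosen after seeing the data.

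The regulators differed less as a group. Insig1, itself a target of SREBP2, gave 0.26 ± 0.12 (SE, adjusted p = 0.837, limma), with 5 of 5 APP-PS1 arrays above the wild-type mean. Srebf2 gave 0.13, Scap 0.02 and Nr1h3, a liver X receptor, 0.03. The median of the 4 was 0.08, 1 of them (Insig1) was higher at an unadjusted p under 0.05 (4.8% of all genes), and none had separate groups. With quantile normalization 0 of the 4 were higher at that threshold (3.08% of all genes). Without APP-PS1 control chow replicate 1 the median was 0.03 with 2 of 4 above 0 and 0 at an unadjusted p under 0.05, and Insig1 gave 0.15. Under quantile normalization or median centring 1 and 2 of the 4, respectively, lay below 0.

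Among export genes, Abca1 and Abcg1, the transporters that load cholesterol onto lipoprotein particles, gave 0.04 and 0.10, and Cyp46a1, the neuronal hydroxylase whose product leaves the brain, 0.01. Lcat, which esterifies cholesterol on those particles, gave 0.18 ± 0.07 (SE, adjusted p = 0.808, limma). The median of the 4 was 0.07, 1 of them (Lcat) was higher at an unadjusted p under 0.05 (4.8% of all genes), and the groups of all 4 overlapped. With quantile normalization 0 of the 4 were higher at that threshold (3.08% of all genes).

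Among uptake and handling genes, Stard4, which carries sterol between membranes in the cytosol (probe set 10458033), differed by 0.30 ± 0.13 (SE, adjusted p = 0.808, limma), and Npc1, which passes cholesterol out of lysosomes (probe set 10457508), by 0.14 ± 0.07 (SE, adjusted p = 0.829, limma). The values of Stard4 were 8.56, 8.53, 8.44 and 8.52 in wild-type and 9.30, 8.70, 8.73, 8.72 and 8.60 in APP-PS1 mice, given in full after the values were seen. Both genes had every APP-PS1 array above every wild-type array on control chow, as 2.94% of all genes did. Leaving out replicate 1 could not undo this, since it was the highest APP-PS1 array for both. Without it Stard4 gave 0.17 and Npc1 0.11, with 0 of the 4 at an unadjusted p under 0.05. After quantile normalization 1 of the 4, Stard4, was separate (1.78% of all genes), and after centring each array on its median 0 of the 4 (1.63% of all genes). Mylip, the ligase that marks lipoprotein receptors for breakdown, gave 0.09 and Npc2, the lysosomal partner of Npc1, 0.15. The median of the 4 was 0.14 and 2 of them were higher at an unadjusted p under 0.05 (4.8% of all genes). With quantile normalization 1 of the 4 was higher at that threshold (3.08% of all genes). Whether synthesis genes differ from the other classes in their response was not tested; the medians are given side by side.

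Promoters are shown for the synthesis genes with 1 listed start site and separate groups on control chow in the values as deposited. They were picked because these genes lay high together. The promoter of Abca1 was added after the search, as the only export gene whose window lacks CCAAT. Each is the 150 bases before the start site, 5′ to 3′ on the gene's own strand, from RefSeq (GRCm38.p6). Capitals mark CCAAT or its complement ATTGG, the box bound by the factor NF-Y, and TCACNCCAC, a form of the sterol regulatory element bound by SREBP2.
Hmgcs1: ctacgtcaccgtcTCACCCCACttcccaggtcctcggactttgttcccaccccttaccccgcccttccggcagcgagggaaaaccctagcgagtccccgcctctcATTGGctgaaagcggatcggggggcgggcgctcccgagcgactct
Nsdhl: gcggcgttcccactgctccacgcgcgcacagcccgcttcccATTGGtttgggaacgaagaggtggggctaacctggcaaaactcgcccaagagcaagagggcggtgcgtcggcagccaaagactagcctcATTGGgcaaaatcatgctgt
Hsd17b7: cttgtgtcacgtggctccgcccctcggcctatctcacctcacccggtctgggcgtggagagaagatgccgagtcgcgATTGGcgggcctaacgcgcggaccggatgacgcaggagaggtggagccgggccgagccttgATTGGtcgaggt
Ebp: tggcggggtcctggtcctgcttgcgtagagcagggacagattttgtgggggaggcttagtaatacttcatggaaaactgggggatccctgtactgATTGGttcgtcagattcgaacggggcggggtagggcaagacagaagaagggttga
Tm7sf2: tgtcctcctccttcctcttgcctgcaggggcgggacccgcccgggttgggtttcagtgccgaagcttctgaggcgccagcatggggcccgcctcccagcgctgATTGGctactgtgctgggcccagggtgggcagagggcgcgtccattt
Msmo1: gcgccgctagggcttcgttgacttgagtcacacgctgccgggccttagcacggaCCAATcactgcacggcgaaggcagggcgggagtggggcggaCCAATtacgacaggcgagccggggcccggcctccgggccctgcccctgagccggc
Sc5d: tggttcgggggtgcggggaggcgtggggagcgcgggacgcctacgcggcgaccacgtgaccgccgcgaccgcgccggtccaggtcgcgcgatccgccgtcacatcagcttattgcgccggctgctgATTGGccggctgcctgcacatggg
Abca1: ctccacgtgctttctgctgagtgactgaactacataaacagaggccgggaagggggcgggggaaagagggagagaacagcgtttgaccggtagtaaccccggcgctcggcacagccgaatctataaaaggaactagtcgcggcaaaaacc
They lie at chr13:119690201-119690350 (plus strand) for Hmgcs1, chrX:72918371-72918520 (plus strand) for Nsdhl, chr1:169969206-169969355 (minus strand) for Hsd17b7, chrX:8193513-8193662 (minus strand) for Ebp, chr19:6067851-6068000 (minus strand) for Tm7sf2, chr8:64733579-64733728 (minus strand) for Msmo1, chr9:42264301-42264450 (minus strand) for Sc5d and chr4:53159896-53160045 (minus strand) for Abca1. The first 7 belong to synthesis genes and each holds at least 1 NF-Y box in these 150 bases, with 2 in Nsdhl, Hsd17b7 and Msmo1, while Abca1 holds none. The element TCACNCCAC is in Hmgcs1 alone of these 8, starting at -137 from the start site.

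Promoter windows of 250 bases before to 50 after a start site were listed for 23 of the 29 members, 14 of them synthesis genes. CCAAT, searched on both strands, was in at least 1 listed window of 14 of 14 synthesis genes, 2 of 4 regulators, 2 of 3 export genes and 2 of 2 uptake and handling genes, beside 41.7% of the 15614 genes on the arrays with an entry. Synthesis genes with and without overlapping groups held it alike. Counted by window, 14 of 17 synthesis windows held it, and 37.4% of all 32851 windows. GGGCGG, the GC box bound by Sp1, was found for 13 of 14 synthesis genes and 52.9% of the array's genes. TCACNCCAC was in 1 of 14 synthesis genes, Hmgcs1, and 1.4% of the array's genes, and the E-box CACGTG in 3 of 14 and 9.5%. In Hsd17b7 the E-box starts at -143 and GC boxes start at -227, -182 and -134. No 2 matches of different motifs shared bases among the 100 matches in the members' windows. A match describes the letters in these windows and no binding.

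The size of the control chow difference rested in part on 1 array. APP-PS1 control chow replicate 1 was the highest of its group in 17 of 17 synthesis genes and 26 of 29 members, and the highest of all 19 arrays in 13 of the 17. Taken as the mean deviation of the 17 genes from their means over all arrays, it stood at 0.45, while the other 4 arrays of its group lay between -0.03 and 0.04 and the 4 wild-type control chow arrays between -0.19 and -0.07. The median of all genes in that array was 0.07. Without it the synthesis median was 0.12 with 17 of 17 above 0, and 2 of 17 had an unadjusted p under 0.05 (2.68% of all genes higher). Without all 3 arrays that stand apart the median was again 0.12 with 17 of 17 above 0, and 3 of 17 were higher and 0 lower at an unadjusted p under 0.05, beside 5.91% and 2.36% of all genes. Leaving out wild-type control chow replicate 3 or replicate 4 gave 3 of 17 as well, with medians of 0.20 (1.46% and 3.68% of all genes). With quantile normalization the median was 0.16 and 5 of 17 passed the unadjusted threshold (3.08% of all genes). In that fit the unadjusted calls over all genes split into 615 higher and 665 lower, against 957 and 213 in the values as deposited.

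**Figure D2:**
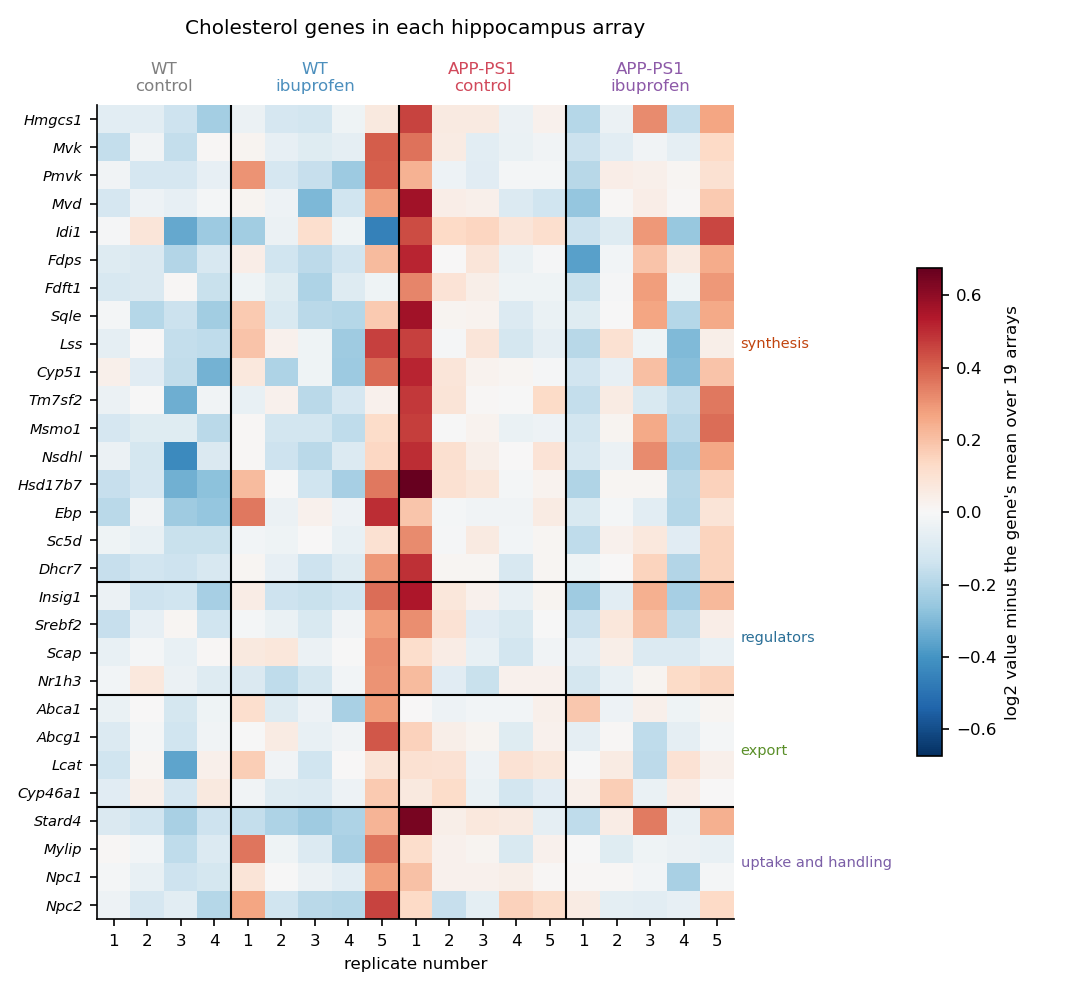
Log2 value of each of 29 genes in each array minus the gene's mean over 19 arrays (colour), with genes in rows by class and arrays in columns by genotype, diet and replicate number. APP-PS1 control chow replicate 1 is highest of its group in 26 of 29 genes and wild-type ibuprofen chow replicate 5 in 25 of 29.

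Markers of myelinating cells moved in the same comparison. Of 11 oligodendrocyte markers, 10 lay above 0 on control chow with a median of 0.19, 6 of them higher at an unadjusted p under 0.05 (4.8% of all genes), and Tspan2 had the smallest p (0.39 ± 0.10, SE, adjusted p = 0.762, limma). Their array means ran from 10.80 to 10.97 in wild-type and from 10.95 to 11.08 in APP-PS1 mice on control chow. In APP-PS1 control chow replicate 1 their mean deviation was 0.10, inside the range of -0.01 to 0.12 of its group. With the mean of these markers as a covariate the synthesis median was 0.17 with 17 of 17 above 0, and 2 of 17 had an unadjusted p under 0.05 (1.78% of all genes higher). Of 8 astrocyte markers 7 lay above 0 (median 0.09) and of 6 microglia markers 5 (median 0.07), with array means of 11.18 to 11.41 and 9.44 to 9.56 in wild-type and 11.36 to 11.56 and 9.50 to 9.66 in APP-PS1 mice. All 5 endothelial markers lay above 0 (median 0.12, 1 of 5 at an unadjusted p under 0.05), with array means of 9.40 to 9.74 in wild-type and 9.47 to 9.71 in APP-PS1 mice. In APP-PS1 control chow replicate 1 the mean deviation of the astrocyte markers was 0.18, above the -0.02 to 0.06 in the rest of its group. That of the microglia markers was 0.09, against -0.06 to 0.01, and that of the endothelial markers 0.12, against -0.12 to 0.12. Of these lists only the oligodendrocyte markers were used as a covariate. The part of the lists in the difference of the synthesis genes was not tested further.

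On ibuprofen chow 10 of the 17 synthesis genes lay above 0 in APP-PS1 against wild-type mice, with a median of 0.03 in a range of -0.22 to 0.18, beside a median of -0.05 over all genes. Without the 3 arrays that stand apart the median was 0.12, as on control chow. No member passed (limma, 0.271% of all genes did), and at an unadjusted p under 0.05 the synthesis genes gave 1 higher (Fdft1) and 1 lower (Ebp), where 6.25% of all genes were higher and 18.2% lower. No member had every APP-PS1 array above every wild-type array, which 0.231% of all genes had. The medians of regulators, export genes and uptake and handling genes were -0.01, 0.00 and -0.07, and Scap was the 1 member among them with an unadjusted p under 0.05. Of 7 hippocampal neuron markers 6 lay below 0 in the same comparison (median -0.22), 2 of them passing at an adjusted p under 0.05 (Dsp, -1.29 ± 0.19, SE, adjusted p = 0.00545, limma, had the smallest p). Their mean deviations ran from -0.31 to 0.05 in APP-PS1 and from 0.04 to 0.24 in wild-type mice on this diet, and their part in the values of the members was not tested. Of 11 oligodendrocyte markers 2 lay above 0 (median -0.03).

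Ebp (probe set 10603485) had values of 10.01, 9.61, 9.68, 9.62 and 10.15 in wild-type mice on ibuprofen chow and of 9.55, 9.64, 9.58, 9.46 and 9.74 in APP-PS1 mice. Wild-type replicates 1 and 5 lay above all other arrays of both groups, and the rest overlapped. The difference was -0.22 ± 0.09 (SE, adjusted p = 0.168, limma) with 5 of 5 APP-PS1 arrays below the wild-type mean, and -0.04 without the arrays that stand apart. Scap, the escort of SREBP2 (probe set 10589511), had 10.91, 10.92, 10.80, 10.84 and 11.15 in wild-type and 10.77, 10.88, 10.75, 10.75 and 10.79 in APP-PS1 mice. All of the wild-type arrays exceeded 4 of the 5 APP-PS1 arrays, and the difference was -0.14 ± 0.06 (SE, adjusted p = 0.173, limma), or -0.07 without the arrays that stand apart.

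Fdft1, the squalene synthase (probe set 10420730), went the other way. Its values were 12.24, 12.19, 12.06, 12.18 and 12.24 in wild-type and 12.12, 12.26, 12.55, 12.24 and 12.56 in APP-PS1 mice on this diet. Replicates 3 and 5 of the APP-PS1 arrays were high and replicate 1 lay among the wild-type arrays. The difference was 0.16 ± 0.08 (SE, adjusted p = 0.198, limma), and its other probe set gave 0.27 (adjusted p = 0.13, limma).

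The same 2 APP-PS1 arrays were high across the pathway. Mean deviations of the synthesis genes were -0.16, 0.00, 0.13, -0.14 and 0.22 in APP-PS1 replicates 1 to 5 on ibuprofen chow, and 0.06, -0.07, -0.11, -0.13 and 0.20 in wild-type replicates 1 to 5, so that both groups spanned about the same range. Those of the astrocyte markers were -0.03, -0.05, 0.09, -0.01 and 0.26 in the same APP-PS1 arrays. In the wild-type arrays they were 0.00, -0.07, -0.09, -0.05 and 0.15, and their part in the values of the members was not tested. Wild-type replicate 5 was the highest of its group in 15 of 17 synthesis genes and 25 of 29 members, and the median of all genes in that array was 0.15. In that median of 0.12 without the 3 arrays that stand apart, 16 of 17 synthesis genes lay above 0 (all genes 0.00), 4 of 17 were higher at an unadjusted p under 0.05 (4.11% of all genes), and Stard4 gave 0.31 ± 0.09 (SE, adjusted p = 0.204, limma). Dropping wild-type replicate 5 or APP-PS1 replicate 1 gave a median of 0.09. It was 0.06 without APP-PS1 replicate 4, -0.02 without APP-PS1 replicate 5, and 0.00 and 0.01 without wild-type replicates 3 and 4. With array weights, which give less weight to arrays far from their group, Stard4 (0.32 ± 0.08, SE, adjusted p = 0.0267, limma) and Msmo1 (0.27 ± 0.08, SE, adjusted p = 0.0454, limma) passed, as did 1004 of all 19938 genes. In the unweighted fit these 2 members gave 0.20 and 0.13 with adjusted p of 0.276 and 0.402 (limma). Stard4 had 4 of 5 and Msmo1 3 of 5 APP-PS1 arrays above the wild-type mean. The values of Stard4 on ibuprofen chow were 8.50, 8.45, 8.42, 8.45 and 8.89 in wild-type and 8.49, 8.71, 9.01, 8.61 and 8.90 in APP-PS1 mice. Its highest wild-type array was replicate 5, which only 2 of 5 APP-PS1 arrays exceeded.

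**Figure D3:**
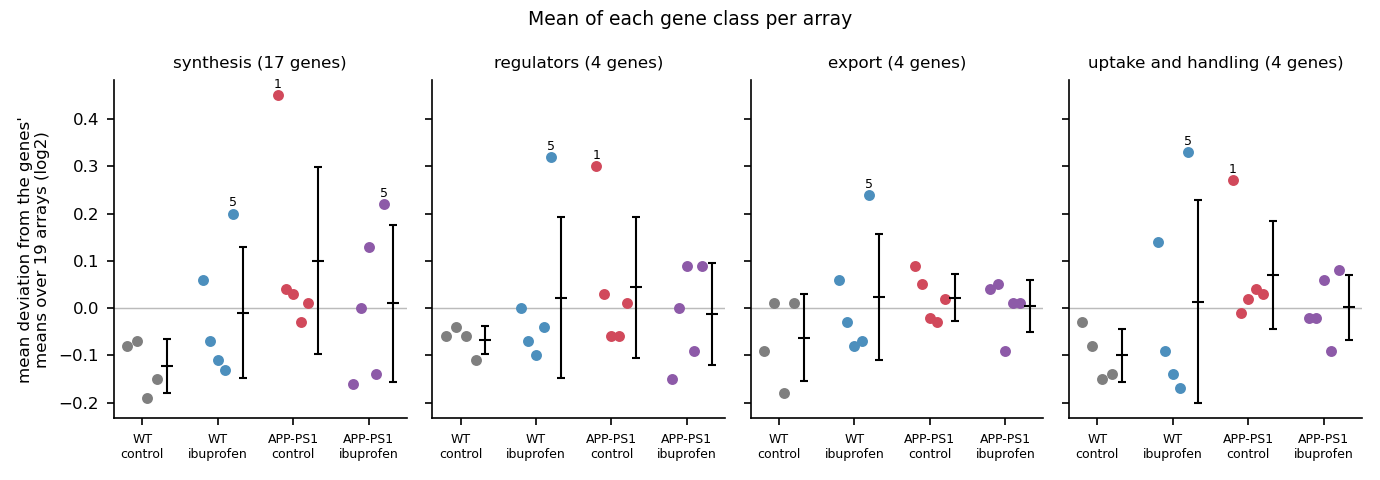
Mean deviation of each gene class from its genes' means over 19 arrays (log2), 1 point per array, with the mean and SD of each group in black and arrays above 0.18 marked by replicate number. In synthesis genes APP-PS1 control chow replicate 1 stands at 0.45, and the 4 wild-type control chow arrays lie between -0.19 and -0.07.

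Ibuprofen in APP-PS1 mice gave small differences in these genes. None of the 17 synthesis genes lay above 0, with a median of -0.09 in a range of -0.21 to 0.00, beside -0.02 over all genes. No member passed at an adjusted p under 0.05 (limma, 0% of all genes) or at an unadjusted p under 0.05, where 1.82% of all genes were higher and 4.66% lower. Without APP-PS1 control chow replicate 1 the median was -0.01 with 8 of 17 above 0. It was -0.05 without APP-PS1 ibuprofen chow replicate 4, and -0.14 with 2 of 17 lower at an unadjusted p under 0.05 without replicate 5. Regulators, export genes and uptake and handling genes had medians of -0.05, -0.01 and -0.06.

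Hsd17b7 had the smallest p of this comparison, with values of 9.96, 10.18, 10.18, 9.98 and 10.32 on ibuprofen chow against 10.84, 10.27, 10.24, 10.15 and 10.19 on control chow. All 5 treated arrays lay below the control mean, which replicate 1 of the control arrays pulls up, and 2 of 5 lay below every control array. The difference was -0.21 ± 0.12 (SE, adjusted p = 0.716, limma), or -0.09 without the arrays that stand apart. Tm7sf2 (probe set 10465342) had 9.24, 9.46, 9.30, 9.24 and 9.76 on ibuprofen chow and 9.88, 9.49, 9.41, 9.40 and 9.53 on control chow, so that 3 of 5 treated arrays were lower than any control array. Its difference was -0.14 ± 0.10 (SE, adjusted p = 0.718, limma).

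Npc1 was the member without overlap here. Its values were 11.20, 11.20, 11.17, 10.97 and 11.18 in APP-PS1 mice on ibuprofen chow and 11.39, 11.22, 11.22, 11.23 and 11.20 on control chow. All 5 treated arrays lay below all 5 control arrays, as 2.27% of all genes did, although replicate 5 on control chow stood at 11.20 as well to 2 decimals. The difference was -0.11 ± 0.06 (SE, adjusted p = 0.716, limma).

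**Figure D4:**
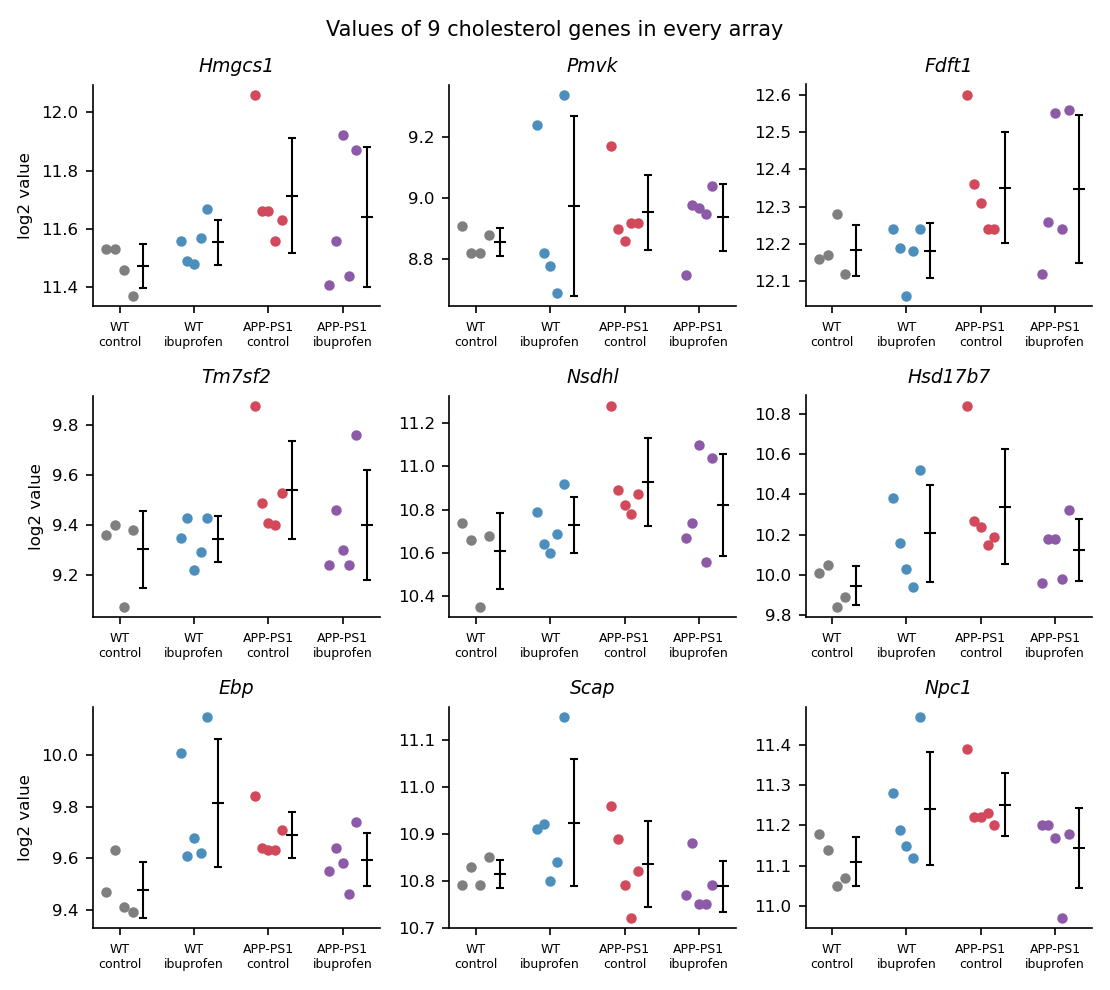
Log2 values of 9 genes (the 3 with the smallest p in each comparison of 2 groups and in the interaction, and Pmvk), 1 point per array in replicate order, with the mean and SD of each group in black. Hsd17b7 and Nsdhl show no overlap between wild-type and APP-PS1 arrays on control chow, and Ebp and Npc1 lie highest in wild-type ibuprofen chow replicate 5 (10.15 and 11.47).

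In wild-type mice ibuprofen gave differences of the opposite sign. All 17 synthesis genes lay at or above 0, with a median of 0.12 in a range of 0.00 to 0.34, beside 0.05 over all genes. No member passed (limma, 0% of all genes), and at an unadjusted p under 0.05 1 of 17 was higher (Ebp) and 0 lower, where 9.08% of all genes were higher and 1.95% lower. No member had every ibuprofen array above every control array, which 1.94% of all genes had. Regulators, export genes and uptake and handling genes had medians of 0.11, 0.09 and 0.14, with 0 at an unadjusted p under 0.05. All 11 oligodendrocyte markers lay above 0 as well (median 0.13, 4 of 11 higher at an unadjusted p under 0.05), with array means of 10.86 to 11.08 on ibuprofen and 10.80 to 10.97 on control chow, and their part in the values of the members was not tested. When replicate 5 of the treated arrays was left out, the synthesis median was 0.05 with 15 of 17 above 0, and without the 3 arrays that stand apart it was 0.01 with 10 of 17 above 0. Leaving out replicate 4 gave 3 of 17 higher at an unadjusted p under 0.05.

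Ebp stood at 9.47, 9.63, 9.41 and 9.39 on control and at 10.01, 9.61, 9.68, 9.62 and 10.15 on ibuprofen chow in wild-type mice. All 5 treated arrays lay above the control mean and 3 of 5 above every control array, with replicates 1 and 5 far above the others. The difference was 0.34 ± 0.10 (SE, unadjusted p = 0.00216, adjusted p = 0.432, limma), and 0.16 ± 0.06 (SE, adjusted p = 0.999, limma) without the arrays that stand apart. Hsd17b7 had 10.38, 10.16, 10.03, 9.94 and 10.52 on ibuprofen chow, which is 0.26 ± 0.13 higher in the mean (SE, adjusted p = 0.432, limma) with 4 of 5 arrays above the control mean, and 0.10 without the arrays that stand apart. Npc1 had 11.18, 11.14, 11.05 and 11.07 on control and 11.28, 11.19, 11.15, 11.12 and 11.47 on ibuprofen chow. The difference was 0.13 ± 0.07 (SE, adjusted p = 0.432, limma) with 5 of 5 arrays above the control mean, and 0.04 without those arrays.

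The interaction asks whether the genotype difference depends on the diet. All 17 synthesis genes lay below 0, with a median of -0.17 in a range of -0.47 to -0.01, beside -0.07 over all genes. No member passed (limma, 0% of all genes), and at an unadjusted p under 0.05 2 of 17 synthesis genes were lower (Ebp and Hsd17b7) and 0 higher, where 16% of all genes were lower and 4.5% higher. Over all 29 members 4 were lower, with Npc1 and Abcg1 the others. The share of synthesis genes below that threshold was no larger than the share of all genes. Of 11 oligodendrocyte markers all 11 lay below 0 in the interaction, with a median of -0.24 and 7 lower at an unadjusted p under 0.05, and their part in the values of the members was not tested. All 7 hippocampal neuron markers lay below 0 too (median -0.20). Ebp gave -0.44 ± 0.13 (SE), Hsd17b7 -0.47 ± 0.17 (SE) and Npc1 -0.24 ± 0.09 (SE), each with adjusted p = 0.208 (limma). Without the arrays that stand apart Hsd17b7 gave -0.19 ± 0.11 (SE, adjusted p = 0.587, limma), Npc1 -0.12 and Abcg1 -0.12. For Npc1, 5 of 5 ibuprofen arrays lay below the control mean in APP-PS1 mice and 5 of 5 above it in wild-type mice, and the same held for Abcg1 (-0.24 ± 0.10, SE, adjusted p = 0.222, limma). The medians of regulators, export genes and uptake and handling genes were -0.15, -0.11 and -0.20.

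The interaction moved with array weights, with scaling and with the arrays that stand apart. With array weights the synthesis median was 0.03, with 9 of 17 above 0 and 1 of 17 lower at an unadjusted p under 0.05 (Ebp). Without those 3 arrays the synthesis median was -0.03 with 6 of 17 above 0 (all genes 0.00), and 1 of 17 was lower (Ebp, -0.22 ± 0.09, SE, adjusted p = 0.501, limma), beside 6.79% of all genes lower and 2.42% higher. It was -0.10 without APP-PS1 control chow replicate 1 alone, -0.04 with quantile normalization and -0.07 with arrays centred on their medians. Centring moved the median of all genes from -0.07 to 0.03 in this comparison, so that relative to all genes the synthesis median was about as far below as in the values as deposited.

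**Figure D5:**
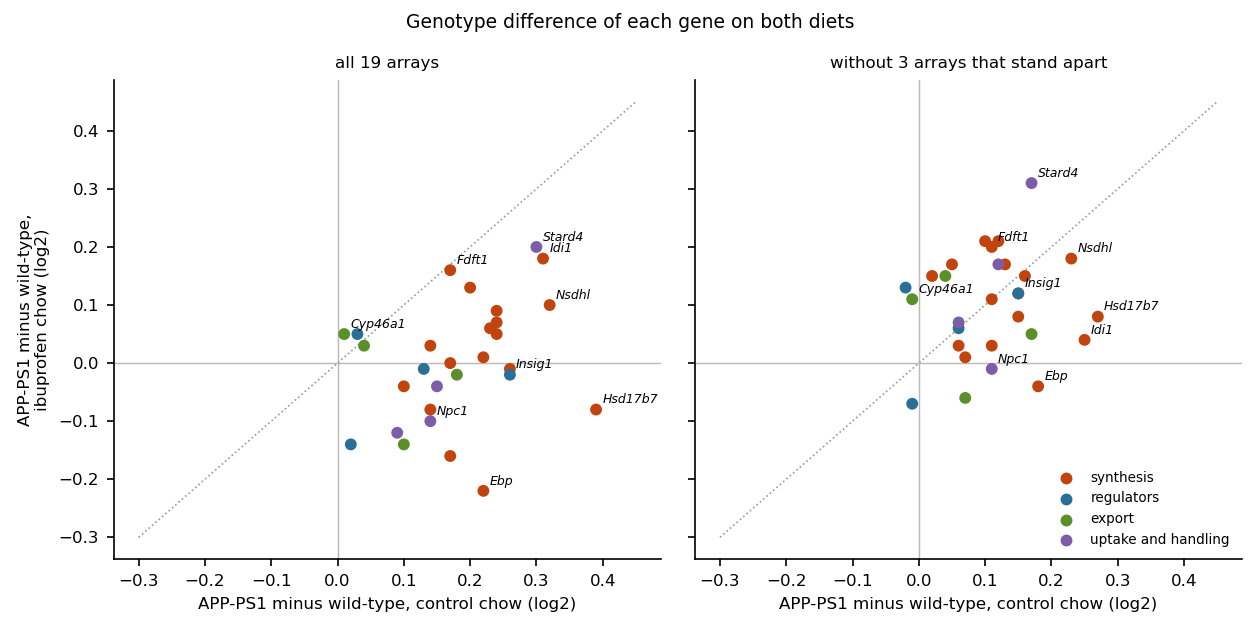
Genotype difference of each of 29 genes on control chow (horizontal) and on ibuprofen chow (vertical), both log2, with all 19 arrays (left) and without the 3 arrays that stand apart (right), and a dotted line where both are equal. On the left the 17 synthesis genes have medians of 0.22 on control and 0.03 on ibuprofen chow, and on the right 0.12 on both.

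Averaged over both diets, the genotype difference of the synthesis genes had a median of 0.14 in a range of 0.00 to 0.25, with 16 of 17 above 0 and a median of -0.01 over all genes. No member passed (limma, 0.0251% of all genes). At an unadjusted p under 0.05, 5 of 17 synthesis genes were higher (Hmgcs1, Idi1, Fdft1, Msmo1 and Nsdhl) and 0 lower, where 2.34% of all genes were higher and 5.36% lower. Fdft1 gave 0.17 ± 0.06 (SE, adjusted p = 0.438, limma), Nsdhl 0.21 ± 0.08 (SE, adjusted p = 0.537, limma) and Idi1 0.25 ± 0.09 (SE, adjusted p = 0.537, limma). Of the other 12 members 1 was higher on the same terms, Stard4 at 0.25 ± 0.09 (SE, adjusted p = 0.48, limma), and the medians of regulators, export genes and uptake and handling genes were 0.05, 0.03 and 0.04. Oligodendrocyte markers lay higher too, 9 of 11 above 0 with a median of 0.08 and 4 at an unadjusted p under 0.05 (2.34% of all genes). Their part in the values of the members was not tested beyond a covariate.

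This average did not shrink without the 3 arrays that stand apart. Its synthesis median was then 0.14 with 17 of 17 above 0, and 10 of 17 were higher at an unadjusted p under 0.05, beside 5.13% of all genes and a median of 0.00 over all genes. With quantile normalization the median was 0.16 and 12 of 17 were higher (4.04% of all genes). Stard4 gave 0.24 ± 0.06 (SE, adjusted p = 0.209, limma) and Hsd17b7 0.17 ± 0.05 (SE, adjusted p = 0.286, limma) without those arrays. With array weights Stard4 (0.25 ± 0.06, SE, adjusted p = 0.0289, limma) and Nsdhl (0.22 ± 0.06, SE, adjusted p = 0.0447, limma) passed, as did 342 of all 19938 genes. Leaving out 1 array at a time, the synthesis median ran from 0.09 without APP-PS1 control chow replicate 1 to 0.17 without wild-type ibuprofen chow replicate 5. Both are among the 3 arrays that stand apart, and their removal moved the median in opposite directions. The number of synthesis genes below an unadjusted p of 0.05 dropped to 3 when any of APP-PS1 control chow replicate 1, wild-type control chow replicate 4, or replicates 3 and 5 of the treated APP-PS1 mice was left out. It came to 8 on removal of replicate 1 of the treated APP-PS1 mice and to 10 on removal of replicate 5 of the treated wild-type mice.

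Other genes of sterol metabolism are given beside the members, 22 of them measured. On control chow 17 of 22 lay above 0 with a median of 0.09, and 5 were higher at an unadjusted p under 0.05, where 4.8% of all genes were. Erlin2, which takes part in sterol-regulated protein breakdown in the endoplasmic reticulum, had the smallest p (0.21 ± 0.07, SE, adjusted p = 0.767, limma). On ibuprofen chow 7 of 22 lay above 0 (median -0.08), 3 were lower at that threshold (18.2% of all genes), and Cyp7b1, an oxysterol hydroxylase, gave -0.31 ± 0.11 (SE, adjusted p = 0.146, limma). In the interaction 6 of 22 were lower (16% of all genes), and Insig2, the relative of Insig1, had the smallest p of this list (-0.27 ± 0.08, SE, adjusted p = 0.208, limma). Averaged over diets 12 of 22 lay above 0 with a median of 0.01.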

How the data were processed

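RNA of 19 hippocampus samples was measured on Affymetrix arrays. Each deposited value is the log2 signal of 1 probe set. Partek 6.5 and RMA are named in the submitters' processing notes for the authors' normalization, with settings not given in the sources used here. No further normalization was applied. Of 35556 probe sets, an array annotation of 2016 gave 21789 a single symbol, 1621 several and 12146 none here, and 21698 with a single symbol were found in a RefSeq gene table (GRCm38.p6). All arrays entered 1 model of 4 group means (limma 3.58.1, R 4.3.3) with an intensity trend and 15 residual degrees of freedom. Tests were two-sided and adjusted by Benjamini and Hochberg over 19938 genes, at 0.05. SE is limma's standard error of a difference and SD the standard deviation of a group. No filter on dim genes was applied, so all 29 measured members entered every count. Array number limits the precision.

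The members, lists and tests were chosen with earlier results of these data known. Values of every array are given for the 3 members with the smallest p in each comparison of 2 groups and in the interaction, and for the synthesis gene with the largest p on control chow, and for Stard4, added after its values were seen, and other lists' genes are named where they have the smallest p of their list. The fit was tested on simulated data before use. Promoter windows were matched by symbol. Python 3.11.15 and matplotlib 3.10.9 drew the plots. The alternatives were quantile normalization, array centring, leaving out the dimmest genes, the mean of a gene's probe sets, no intensity trend, robust empirical Bayes, array weights, the compared groups alone, a replicate block, marker covariates, and leaving out arrays.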

Additional observations from a re-analysis of the deposited data

Results flagged for a closer look

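Among 116 tests of a group's highest or lowest array (29 genes in 4 groups), 25 cases lay far from the rest of their group by Dixon's criterion, where chance gives about 1 in 20. The genes share their arrays, so these are few independent events. In 16 genes it was APP-PS1 control chow replicate 1, the highest of its group, with log2 values of 12.06 for Hmgcs1, 9.17 for Pmvk, 9.85 for Mvd, 10.40 for Idi1, 11.54 for Fdps, 11.14 for Sqle, 10.09 for Cyp51 and 9.88 for Tm7sf2. It stood at 11.74 for Msmo1, 11.28 for Nsdhl, 10.84 for Hsd17b7, 11.01 for Sc5d, 10.64 for Dhcr7, 11.50 for Insig1, 11.39 for Npc1 and 9.30 for Stard4. Of these 16, 13 are synthesis genes.

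In 5 genes it was wild-type ibuprofen chow replicate 5, the highest of its group, at 10.16 for Mvk, 11.76 for Srebf2, 11.27 for Abcg1, 11.90 for Cyp46a1 and 8.89 for Stard4. Wild-type control chow replicate 3 was the lowest of its group for Fdps (10.83) and Tm7sf2 (9.07). APP-PS1 control chow replicate 3 was the lowest for Lcat (10.91), and APP-PS1 ibuprofen chow replicate 4 for Npc1 (10.97). The median of all genes stood 0.07 above its mean over arrays in APP-PS1 control chow replicate 1 and 0.15 above it in wild-type ibuprofen chow replicate 5. RNA quality of these arrays was not tested.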

How the results depend on the processing

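With array weights 2 members passed for genotype on ibuprofen chow and 2 for genotype averaged over diets, where 0 passed in the unweighted fit; under every other alternative and leave-out 0 members passed in each comparison. The uptake and handling median on ibuprofen chow was 0.09 with array weights and 0.12 without the arrays that stand apart, and for ibuprofen in wild-type mice -0.02 and -0.05. In the interaction, quantile normalization gave medians of 0.03 for export and -0.04 for uptake and handling, and centring -0.01 for export. Array weights gave 0.03 for synthesis, -0.01 for regulators, -0.01 for export and 0.02 for uptake and handling, and leaving out the arrays that stand apart gave -0.01, 0.00 and 0.03 for the last 3 classes. Tm7sf2 for ibuprofen in APP-PS1 mice gave 0.00 with array weights. The cause of these changes was not tested. A class median counted as kept if it moved by less than the pooled within-group SD of its class mean. This SD was 0.15 for synthesis, 0.13 for regulators, 0.09 for export and 0.13 for uptake and handling. By this rule the other 722 class medians were kept. They include the synthesis median on control chow, which fell from 0.22 to 0.12 without APP-PS1 control chow replicate 1. They also include those of the interaction given above for both scalings and without the arrays that stand apart. The other 182 counts of members passing did not change. With the replicate number as a block 0 members passed, and the synthesis median on control chow was 0.19. Same-numbered arrays of different groups had a median correlation of 0.129 in their deviations (-0.27 to 0.601), with 17 of 27 pairs over 0.1, and differently numbered arrays one of -0.0465, with 29 of 108 pairs over 0.1. Of 19 arrays 11 correlated best with an array of their own number, a hint of pairing from the data. The labels name no shared litter or batch, so the main fit did not take the numbers as pairs. Whether they are pairs was not settled by these correlations, of which 10 same-numbered ones did not exceed 0.1. The block moved the genes passing from 54 to 197 for genotype on ibuprofen chow and from 2 to 4 on control chow. Array weights gave 1004 and 8 there, 342 against 5 for the averaged genotype, and 174, 108 and 2 against 0 for the interaction and for ibuprofen in APP-PS1 and wild-type mice. Sex, litter and batch are not in the labels, and signal over background was not tested.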

Other observations

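The genes of fatty acid synthesis that SREBP1 controls, of which 14 were measured, lay above 0 for genotype on control chow in 12 of 14, with a median of 0.07, and 4 were higher at an unadjusted p under 0.05 (4.8% of all genes). Elovl5, a fatty acid elongase, had the smallest p (0.16 ± 0.05, SE, adjusted p = 0.767, limma). On ibuprofen chow 5 of 14 lay above 0 with a median of -0.04, and Thrsp, a lipogenic protein gene, gave -0.30 ± 0.09 (SE, adjusted p = 0.116, limma). Their mean deviation was 0.19 in APP-PS1 control chow replicate 1, the array that stood highest for the synthesis genes, and lay between -0.04 and 0.01 in the other 4 arrays of that group. For ibuprofen in APP-PS1 mice 13 of 14 lay below 0 (median -0.05), and in the interaction 14 of 14 did (median -0.11), with 0 passing at an adjusted p under 0.05 and 1 lower at an unadjusted p under 0.05 in each, where 4.66% and 16% of all genes were lower.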
